A study of Mus musculus with 6 samples.

Results

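The 10 genes described here belong to purinergic signaling, the use of extracellular ATP and related nucleotides as messengers between cells, and to the chloride conductance that such signals can open. They were picked by symbol and are the ATP-gated channel subunits P2rx2, P2rx3, P2rx4 and P2rx7, the G protein-coupled receptors P2ry1 and P2ry2, the calcium-activated chloride channel Ano1, the ATP-permeable channel Panx1, and the surface nucleotidases Entpd1 and Entpd2. All 10 symbols matched a gene among the 39179 counted. RNA-seq was done on the sensory epithelium of the cochlea, the hearing organ, and of the vestibule, the balance organ, both taken from wild-type C57Bl/6J newborns (P0), males and females pooled, and the labels name no treatment. There were 3 libraries per tissue, each with RNA of at least 20 cochleae or vestibules behind it, and the design text gives 20 inner ears of 10 mice. Each library took 450 ng of a total of 2.4 μg (cochlea) or 1.5 μg (vestibule), and it is not stated whether the 3 libraries of a tissue had separate pools of RNA, so p-values measure only the spread between these libraries, which may be technical.

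In the newborn cochlea, inner supporting cells of the greater epithelial ridge (Kölliker's organ) are known to release ATP spontaneously before the onset of hearing. The ATP acts on P2Y receptors of the same cells, calcium is released from stores, Ano1 opens, and the chloride and potassium that leave the cells depolarize nearby hair cells, which then excite auditory neurons. P2X receptors, which are cation channels opened directly by ATP, are found on hair cells, neurons, glia and macrophages, and surface nucleotidases end the signal by breaking ATP down.

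At depths of 24464483 to 33664793 counts on genes per library, 1 CPM, the count scaled to a common total of counts on genes, stood for 24.5 to 33.7 counts. All 10 members had at least 1 CPM in all 6 libraries, and 0 were under 1 CPM in any library. Their counts ran from 74 (Entpd2) to 4702 (Ano1), the fewest and the most in any library. All 8 hair cell markers and all 7 supporting cell markers had counts in all 6 libraries. Myo6 and Jag1 were the highest of each list by their means over all libraries. Supporting cell markers were at 574 to 692 CPM in the cochlea and 306 to 332 CPM in the vestibule (6 of 7 called, all in the cochlea, and 3 without cochlea replicate 2). Mesenchymal markers, led by Col1a2, were at 3770 to 4604 CPM and 7342 to 8490 CPM (4 of 7 called in the vestibule and 1, Pou3f4, in the cochlea; 3 in all without any single library but cochlea replicate 3). Summed macrophage markers were at 69.9 to 88.0 CPM in the cochlea and 342 to 394 CPM in the vestibule. Of these, 8 of 8 were called higher in the vestibule and none was at 0, with Mrc1 the highest by its mean over all libraries. Cochlea replicate 3 stood apart with the highest level of skeletal muscle markers, led by Acta1 (278 CPM, against 4.01 and 7.92 CPM in the other cochlear libraries and 8.64 to 26.2 CPM in the vestibule, with Tnnc2 at 0 throughout and 0 of 4 tested markers called by edgeR, DESeq2 or limma-voom, 1 at an unadjusted p under 0.05, and 1 without that library). In bulk tissue, fewer cells of a type and less RNA per cell cannot be told apart.

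Of the 10 members, 2 were up-regulated in the cochlea (Ano1 and P2rx3), 3 were up-regulated in the vestibule (Entpd1, P2rx4 and P2ry2), and 5 were not called, at an FDR of 0.05 (quasi-likelihood test of edgeR, p-values adjusted by Benjamini-Hochberg over all 14723 genes tested). Among all genes tested 27.4% were called, 11.6% higher in the cochlea and 15.8% higher in the vestibule. Libraries of the tissues did not overlap in CPM for 7 of the 10 members, where 41.8% of all genes tested had no overlap. The 2 called in the cochlea were higher there in every library (14.3% of all genes tested), and 5 members were higher in every vestibular library (27.5%). At an unadjusted p under 0.05 there were 7 members, against 38.9% of all genes tested. With library sizes alone in place of TMM scaling, 5 members were higher in the vestibule and 2 in the cochlea. Under that scaling the median log2 fold change over all genes moved from 0.0048 to 0.13, and the share of all calls that were higher in the vestibule moved from 57.6% to 68.8%. A log2 fold change below 0 stands here for more RNA in the cochlea, and one above 0 for more in the vestibule. The median over the 10 members was 0.48.

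**Figure D1:**
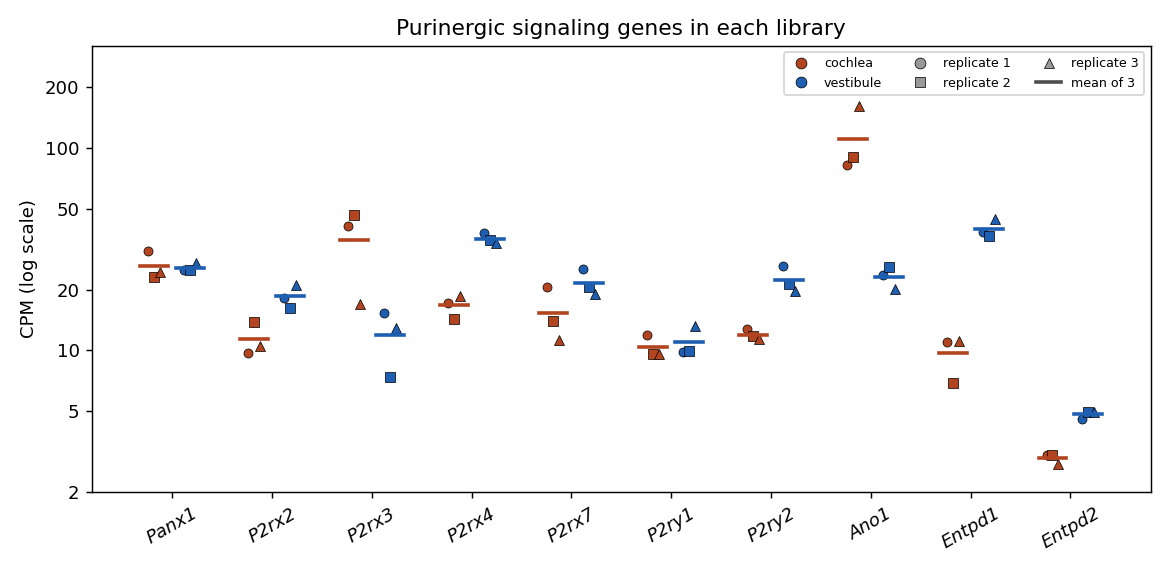
CPM of each member (log axis) in the 3 cochlear and 3 vestibular libraries, with 1 symbol per replicate and a bar at the mean. The cochlear libraries lie above the vestibular ones for Ano1 and, narrowly, P2rx3, and below them for P2rx2, P2rx4, P2ry2, Entpd1 and Entpd2, while those of Panx1, P2rx7 and P2ry1 overlap.

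Promoter sequences are shown for 3 genes whose call was the same under every alternative tried: Ano1, the member with the largest difference towards the cochlea, Entpd1, the one with the largest towards the vestibule, and P2rx4, the subunit that rose most in the vestibule. They are RefSeq promoters (250 bases before to 50 after a transcript start) on GRCm38.p6, 5′ to 3′ on the strand of the gene, at chr7:144738524-144738823 on the minus strand, chr19:40612116-40612415 on the plus strand, and chr5:122707294-122707593 on the plus strand, in the order of the lines. The Ano1 window starts a RefSeq transcript inside the GENCODE gene. Capitals mark the GC box GGGCGG, the CCAAT box CCAAT and the TATA box TATAAA, each searched on both strands.
Ano1: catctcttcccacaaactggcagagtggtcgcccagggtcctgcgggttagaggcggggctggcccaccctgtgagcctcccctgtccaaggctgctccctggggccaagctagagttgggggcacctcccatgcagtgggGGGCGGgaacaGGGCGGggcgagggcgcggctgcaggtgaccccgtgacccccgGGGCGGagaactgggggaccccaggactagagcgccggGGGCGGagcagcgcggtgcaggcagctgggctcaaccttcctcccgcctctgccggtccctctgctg
Entpd1: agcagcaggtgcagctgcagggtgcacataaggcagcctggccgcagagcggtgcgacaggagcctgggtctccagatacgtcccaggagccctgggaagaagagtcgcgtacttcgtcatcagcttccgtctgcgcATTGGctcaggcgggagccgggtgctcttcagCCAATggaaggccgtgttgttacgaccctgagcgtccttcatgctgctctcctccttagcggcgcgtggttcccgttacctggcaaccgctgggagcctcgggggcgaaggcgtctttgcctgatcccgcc
P2rx4: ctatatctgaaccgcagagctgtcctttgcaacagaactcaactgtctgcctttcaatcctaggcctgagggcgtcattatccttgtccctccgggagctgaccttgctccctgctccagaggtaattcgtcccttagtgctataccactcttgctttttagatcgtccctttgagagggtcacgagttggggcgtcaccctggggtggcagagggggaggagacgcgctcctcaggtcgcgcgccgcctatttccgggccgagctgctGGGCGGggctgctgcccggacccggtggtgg
In the Ano1 window 4 GC boxes were found and its GC content was 71.7%. The P2rx4 window held 1 GC box after the start, at 60.3% GC. The Entpd1 window held 2 CCAAT boxes, 1 on each strand, and no GC box, at 64.0% GC, and its start lies 133 bases from the coding gene Tctn3. Of all 32851 promoters of the same length, 35.7% held a GC box, 37.4% a CCAAT box and 13.6% a TATA box. The table holds 11 promoters of 8 members, of which 7 had a GC box, 3 a CCAAT box and 0 a TATA box. These matches are a description of the letters only.

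Panx1 forms large channels through which cells release ATP. Its level was 30.9, 23.2 and 24.3 CPM in the cochlear libraries and 25.01, 25.1 and 26.9 CPM in the vestibular libraries. The tissues overlapped, with cochlea replicate 1 the highest library and the other 2 cochlear libraries the lowest. The log2 fold change of -0.14 (standard error 0.15) was not called (adjusted p = 0.535, edgeR), and its 95% interval was a vestibular level of 0.717 to 1.15 times the cochlear one.

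P2rx2 encodes an ATP-gated channel subunit known in cochlear and vestibular hair cells and in their neurons. Its level was 9.73, 13.8 and 10.5 CPM in the cochlear libraries and 18.2, 16.3 and 21.1 CPM in the vestibular libraries. All 3 vestibular libraries were higher than all 3 cochlear ones. The log2 fold change of 0.59 (standard error 0.21) was not called in edgeR (adjusted p = 0.0678), and its 95% interval ran from a 1.08-fold to a 2.08-fold higher level in the vestibule. It was called by DESeq2 (adjusted p = 0.0489), with library sizes alone (0.0251) and without cochlea replicate 2 (log2 fold change 0.79, adjusted p = 0.0331), and over 13 alternative fits its adjusted p ran from 0.0251 to 0.201. The sum of the hair cell markers moved with it, at 618 to 756 CPM in the cochlea and 1038 to 1303 CPM in the vestibule. Single markers differed: Otof had means of 83.6 and 390 CPM, Atoh1 8.20 and 8.55 CPM, and Myo6 399 and 340 CPM (not called by edgeR). Of all 8 markers, 4 were called higher in the vestibule and 1 in the cochlea (Pvalb, which auditory neurons also express), and none was at 0. Per 100 CPM of these markers P2rx2 was at 1.39 to 1.99 CPM in the cochlea and 1.40 to 2.03 CPM in the vestibule, ranges that overlap. Set against 100 CPM of the neuronal markers, P2rx2 was at 2.23, 3.56 and 7.22 CPM in the cochlear libraries and 6.18, 15.7 and 18.1 CPM in the vestibular libraries, where cochlea replicate 3 lay above vestibule replicate 1. The part of either cell type in the difference was not tested.

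P2rx3, a subunit typical of sensory neurons that can assemble with P2rx2, was the ATP-gated channel gene with more RNA in the cochlea. It had 41.3, 46.9 and 16.9 CPM in the cochlear libraries and 15.4, 7.40 and 12.95 CPM in the vestibular libraries. Cochlea replicates 1 and 2 were far above the rest, while cochlea replicate 3 lay just above vestibule replicate 1. The level was 3.22-fold higher in the cochlea (log2 fold change -1.68, standard error 0.40, adjusted p = 0.0141, edgeR). The call was lost without cochlea replicate 2 (-1.38, adjusted p = 0.0667) or without vestibule replicate 2 (-1.41, adjusted p = 0.051), and with the replicate number as a block (-1.61, adjusted p = 0.0597). Over 13 alternative fits its adjusted p ran from 2.26e-05 to 0.0667. The 7 neuronal markers summed to 436, 389 and 145 CPM in the cochlear libraries and 295, 104 and 117 CPM in the vestibular libraries, with Tubb3, Elavl4 and Prph called higher in the cochlea and none at 0. The number of neuronal markers called was 1 without cochlea replicate 1 or 2 or vestibule replicate 3, and 5 without cochlea replicate 3. Nefm, a neurofilament and the highest of the list by its mean over all libraries, was not called (adjusted p = 0.957). Per 100 CPM of the 7 markers P2rx3 was at 9.47, 12.1 and 11.7 CPM in the cochlear libraries and 5.20, 7.13 and 11.1 CPM in the vestibular libraries, which overlap. The part of neuron content in the difference was not tested. A stretch of 51 bases, 1.83% of the exonic length of P2rx3, overlaps Ssrp1 on the other strand, which was at 137 to 168 CPM. Without the strand setting of the counting, reads of the 2 genes over these bases cannot be told apart.

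P2rx4, a subunit found in macrophages and many epithelia, had 17.2, 14.2 and 18.6 CPM in the cochlear libraries and 38.2, 35.1 and 33.9 CPM in the vestibular libraries. The libraries of each tissue lay close together and far from those of the other tissue. P2rx4 was 1.98-fold higher in the vestibule (log2 fold change 0.98, standard error 0.13, adjusted p = 0.000787, edgeR) and was called in all 13 alternative fits. The summed macrophage markers given above moved with it, but unequally. Per 100 CPM of these markers P2rx4 was at 19.5 to 23.5 CPM in the cochlea and 9.70 to 10.3 CPM in the vestibule, ranges that do not overlap. The part of macrophages in the P2rx4 difference was not tested.

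P2rx7, which is known from macrophages and glia, lies 16112 bases from P2rx4 on the same strand of chromosome 5 (122643911 to 122691432 of GRCm38, GENCODE vM21). It had 20.6, 13.99 and 11.3 CPM in the cochlear libraries and 25.2, 20.7 and 19.0 CPM in the vestibular libraries. Vestibule replicate 3 lay below cochlea replicate 1, so the tissues overlapped. The log2 fold change of 0.38 (standard error 0.22) was not called (adjusted p = 0.244, edgeR), with a 95% interval of 0.917 to 1.84 times the cochlear level, and in none of 13 alternative fits was it called. Schwann cell and glial markers were at 737 to 895 CPM in the cochlea and 1288 to 1648 CPM in the vestibule, with 3 of 7 called higher in the vestibule, Sox10 the highest and none at 0. Per 100 CPM of these markers P2rx7 was at 1.53 to 2.31 CPM in the cochlea and 1.15 to 1.68 CPM in the vestibule. Whether the changes of the neighbours P2rx4 and P2rx7 differ was not tested.

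The 4 P2X subunits made up different mixtures in the tissues when set side by side per length, as the authors' RPKM (reads scaled to gene length and library size). P2rx3 took 51.3%, 54.4% and 31.5% of their summed RPKM in the cochlear libraries and 17.6%, 10.4% and 15.8% in the vestibular libraries. P2rx4 took 13.9% to 29.3% in the cochlea and 34.8% to 41.5% in the vestibule, and P2rx2 took 17.6% to 28.4% and 30.5% to 37.4%. The shares depend on the gene lengths used: with CPM divided by the exonic length in GENCODE vM21, P2rx4 took 7.63% to 18.1% in the cochlea and 23.1% to 28.7% in the vestibule, and P2rx3 took 41.3% to 63.3% and 15.2% to 24.7%. The summed RPKM itself was 28.9, 31.0 and 19.3 for the cochlear libraries and 31.3, 25.6 and 29.4 for the vestibular ones, so the tissues overlapped in the total.

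P2ry1, a receptor for ADP and ATP that couples through Gq to calcium release, is the receptor best known for driving chloride currents in supporting cells of the cochlea. Its level was 11.9, 9.58 and 9.62 CPM in the cochlear libraries and 9.77, 9.93 and 13.3 CPM in the vestibular libraries. The tissues overlapped almost completely. The log2 fold change was -0.024 (standard error 0.20, adjusted p = 0.947, edgeR), with a 95% interval of 0.712 to 1.36 times the cochlear level, and its sign changed with the scaling and with the library left out. GENCODE vM21 places an antisense gene, Gm37035, over 23.1% of its exonic length, and that gene has no row in the count files. The strand setting of the counting is not given in the sources used here, so reads from Gm37035 may be part of the P2ry1 level.

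P2ry2, a receptor for ATP and UTP that also couples through Gq, had 12.8, 11.8 and 11.4 CPM in the cochlear libraries and 26.1, 21.3 and 19.6 CPM in the vestibular libraries. Every vestibular library was above every cochlear one. P2ry2 was 1.71-fold higher in the vestibule (log2 fold change 0.77, standard error 0.15, adjusted p = 0.00473, edgeR) and was called in all 13 alternative fits. Per length, the P2ry1 level was 0.627 to 0.715 of the P2ry2 level in the cochlea and 0.290 to 0.523 of it in the vestibule. The nearest coding gene, 21919 bases away on chromosome 7, is P2ry6, another nucleotide receptor of this family.

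Ano1, the calcium-activated chloride channel also called TMEM16A, showed the largest difference of the 10 genes. It lies on the minus strand of chromosome 7 from 144588549 to 144751974 (GRCm38, GENCODE vM21). Its level was 82.8, 90.7 and 161 CPM in the cochlear libraries and 23.6, 25.9 and 20.1 CPM in the vestibular libraries. Cochlea replicate 3 stood above the other cochlear libraries, and even the lowest cochlear library was far above the vestibular ones. The mean was 111 ± 43.0 CPM in the cochlea and 23.2 ± 2.90 CPM in the vestibule (SD, n = 3 each), 5.22-fold higher in the cochlea (log2 fold change -2.38, standard error 0.25, adjusted p = 0.00018, edgeR). Without cochlea replicate 3, the library with the most muscle RNA, the log2 fold change was -2.05 and remained called, as it did in all 13 alternative fits. Markers of the greater epithelial ridge, the region where Ano1 is known to act, were at 9929 to 12364 CPM in the cochlea and 1105 to 1248 CPM in the vestibule, with 4 of 5 called higher in the cochlea and none at 0; Tecta, which encodes a tectorial membrane protein, was the highest of the list by its mean over all libraries. The part of this region's share of the tissue in the Ano1 difference was not tested. Per length, Ano1 was at 5.21 to 12.5 times the P2ry1 level in the cochlea and 1.13 to 1.94 times in the vestibule.

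Entpd1 encodes CD39, a surface enzyme that breaks ATP and ADP down to AMP and is abundant on endothelium and macrophages. Its level was 11.04, 6.87 and 11.2 CPM in the cochlear libraries and 38.3, 37.0 and 44.6 CPM in the vestibular libraries. The tissues lay far apart, and cochlea replicate 2 was the lowest library. Entpd1 was 3.83-fold higher in the vestibule (log2 fold change 1.94, standard error 0.20, adjusted p = 0.000185, edgeR) and was called in all 13 alternative fits. Macrophage and endothelial markers moved with it. Per 100 CPM of macrophage markers Entpd1 was at 9.84 to 14.1 CPM in the cochlea and 9.74 to 12.9 CPM in the vestibule, which overlap. Endothelial markers were at 177 to 228 CPM in the cochlea and 383 to 542 CPM in the vestibule. Of these, 4 of 6 were called higher in the vestibule and 1 (Emcn) in the cochlea. Kdr was the highest by its mean over all libraries, and none was at 0. Per 100 CPM of the endothelial markers Entpd1 was at 3.88 to 4.90 CPM in cochlear and 7.07 to 10.6 CPM in vestibular libraries. The part of macrophages or endothelium in the Entpd1 difference was not tested.

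Entpd2, a surface enzyme that prefers ATP over ADP and is known on glia, was the member with the fewest counts. It had 3.02, 3.06 and 2.74 CPM in the cochlear libraries and 4.57, 4.98 and 4.99 CPM in the vestibular libraries. The tissues did not overlap and the spread within each was small. The log2 fold change of 0.60 (standard error 0.20) nevertheless missed the threshold in edgeR (adjusted p = 0.0558), with a 95% interval of a 1.105-fold to 2.08-fold higher level in the vestibule. It was called with library sizes alone (adjusted p = 0.0245) and among genes with at least 1 CPM in all 6 libraries (adjusted p = 0.0386), and over 13 alternative fits its adjusted p ran from 0.0245 to 0.167. Of its 100-base stretches 23.0% also occur in transcripts of the overlapping gene Npdc1, where a read cannot be given to 1 gene, so its level is uncertain. Per 100 CPM of the Schwann cell and glial markers Entpd2 was at 0.338 to 0.412 CPM in the cochlea and 0.303 to 0.387 CPM in the vestibule. Relative to Entpd2, the Entpd1 level per length was 0.857 to 1.56 times in the cochlea and 2.83 to 3.41 times in the vestibule.

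**Figure D2:**
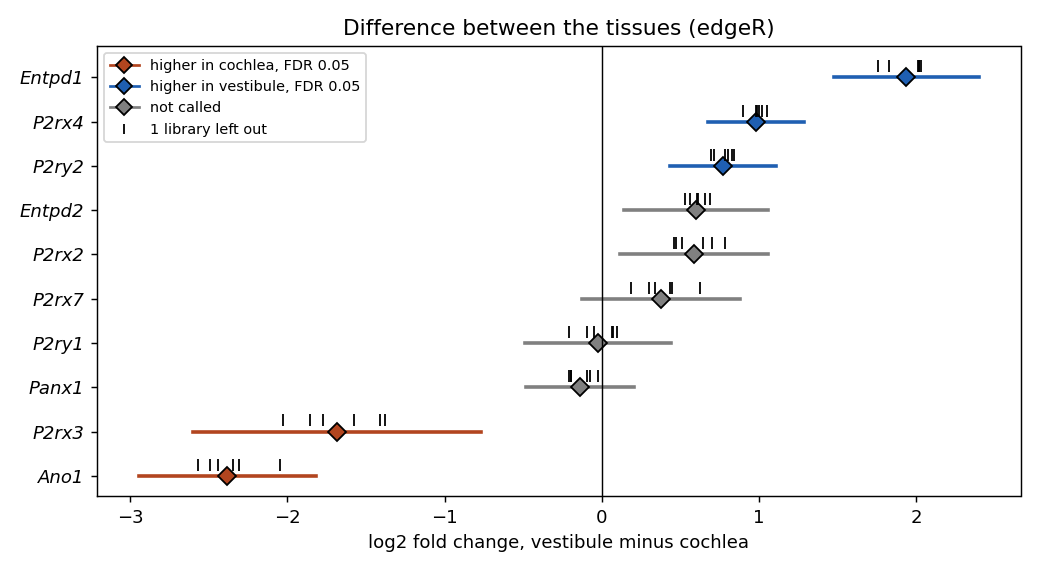
log2 fold change of each member, vestibule minus cochlea, with its 95% interval from edgeR (diamond and line, coloured where called) and the value with each of the 6 libraries left out (ticks). Ano1 (-2.38) and P2rx3 (-1.68) lie on the cochlear side and Entpd1 (1.94), P2rx4 (0.98) and P2ry2 (0.77) on the vestibular side, and the ticks of P2ry1 fall on both sides of 0.

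The order of the members also differed when their levels were compared per length. In the cochlea Ano1 came first at a mean of 21.4 RPKM, followed by P2rx3 at 12.6, Panx1 at 8.74, P2rx2 at 5.92, P2rx4 at 5.05, P2ry2 at 4.005, P2rx7 at 2.84, P2ry1 at 2.67, Entpd1 at 1.74 and Entpd2 at 1.39 RPKM. Neighbours in this order overlapped in their libraries, apart from Panx1 and P2rx2, P2rx4 and P2ry2, and P2ry1 and Entpd1. In the vestibule P2rx4 came first at 10.8 RPKM, followed by P2rx2 at 9.68, Panx1 at 8.59, P2ry2 at 7.45, Entpd1 at 7.18, Ano1 at 4.46, P2rx3 at 4.28, P2rx7 at 4.01, P2ry1 at 2.84 and Entpd2 at 2.29 RPKM. There the neighbours that did not overlap were Entpd1 and Ano1, P2rx7 and P2ry1, and P2ry1 and Entpd2. These orders rest on the lengths behind the authors' RPKM, which were 3.302 kb for P2rx4 and 2.991 kb for Panx1, against exonic lengths of 7.025 and 6.03 kb in GENCODE vM21. At the GENCODE lengths Ano1 and P2rx3 still came first and second in the cochlea, P2rx2 and Entpd1 came first in the vestibule at means of 7.20 and 7.16 CPM per kb, and P2rx4 was at 5.09 CPM per kb, the fourth there and the eighth in the cochlea.

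**Figure D3:**
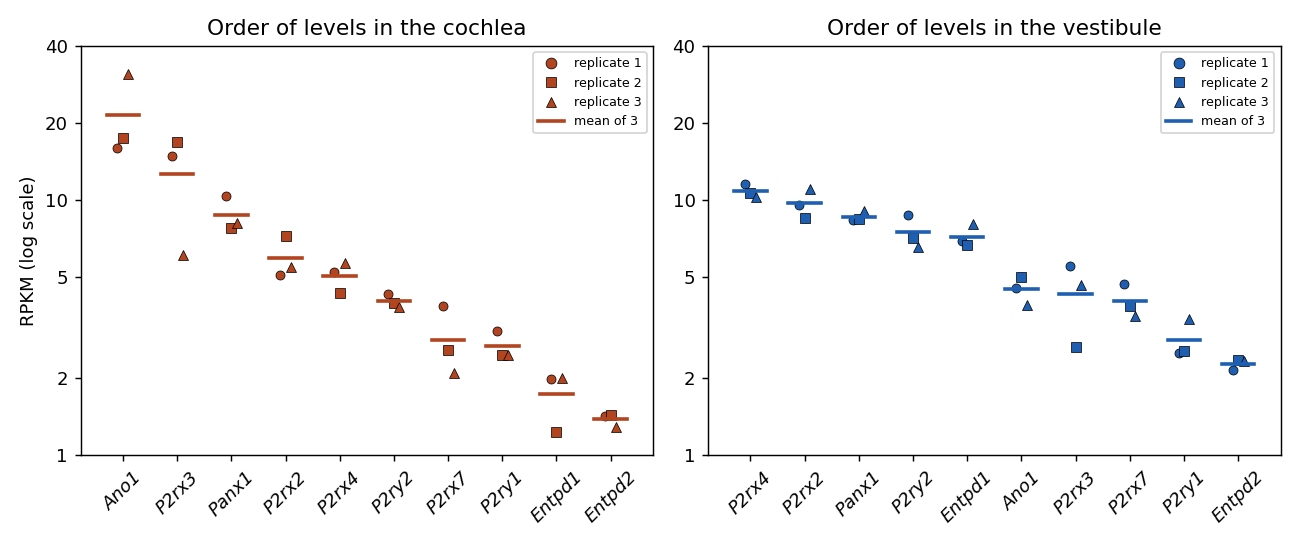
RPKM of the members (log axis) in each library of the cochlea and the vestibule, with members in the order of their mean, shown by a bar. Ano1 leads the cochlea at a mean of 21.4 RPKM and is the sixth gene in the vestibule at 4.46 RPKM, while Entpd1 goes from the place before the last at 1.74 RPKM to the fifth at 7.18 RPKM, at the gene lengths behind the authors' RPKM.

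**Figure D4:**
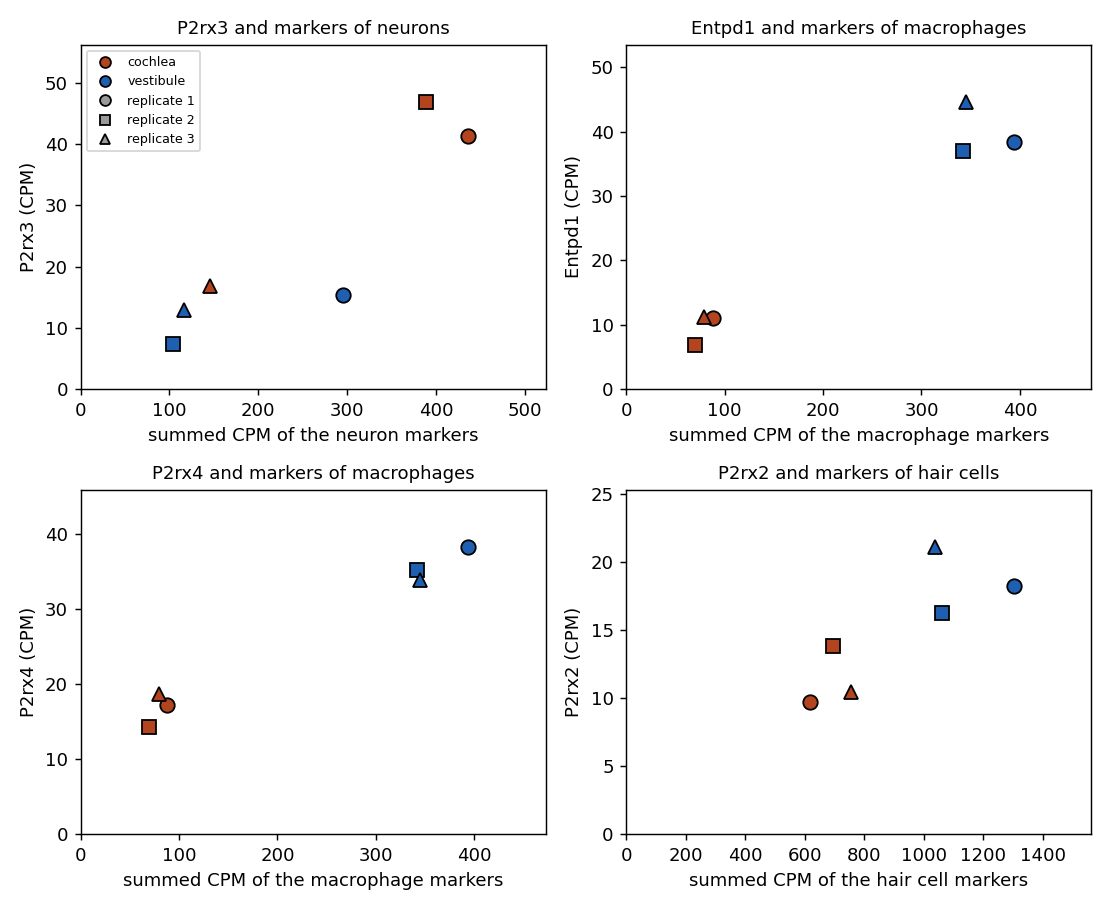
CPM of P2rx3, Entpd1, P2rx4 and P2rx2 (vertical axes) against the summed CPM of neuronal, macrophage or hair cell markers (horizontal axes), with 1 point per library. Cochlea replicate 3 falls with the vestibular libraries for P2rx3 and for neuronal markers, and the tissues form separate groups for Entpd1 and P2rx4 on both axes.

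The other genes of the pathway were taken from lists of 77 genes, of which 63 were tested. Of these 20 were up-regulated in the vestibule and 7 in the cochlea, 42.9% of those tested, with a median log2 fold change of 0.29. Among the other ATP and nucleotide receptors, 4 of 5 tested rose in the vestibule and 0 in the cochlea (edgeR; 0 also at an unadjusted p under 0.05, by DESeq2 and by limma-voom). The number called was 2 among genes with at least 1 CPM in all 6 libraries, 2 without cochlea replicate 2 or vestibule replicate 2 or 3, and 1 without vestibule replicate 1. P2ry6, a UDP receptor of macrophages and epithelia, was at 2.63 CPM in the cochlea and 8.31 CPM in the vestibule, 2.92-fold higher (adjusted p = 0.00207). P2ry14, a receptor for UDP-sugars, was at 0.439 and 1.88 CPM (adjusted p = 0.00262), and under 1 CPM in each cochlear library, so it was tested only because of its vestibular level. P2ry13, an ADP receptor of microglia and macrophages, was at 1.04 and 2.81 CPM (adjusted p = 0.0232), and it too passed the filter only through the vestibule. Its call was lost without cochlea replicate 2 (adjusted p = 0.0937) or without vestibule replicate 1 (adjusted p = 0.0832). The list moved with the macrophage markers, whose part was not tested. P2ry12, the ADP receptor of microglia, was at 2.60 and 6.61 CPM (adjusted p = 0.0398), and with 1 library left out it was called only without cochlea replicate 1 (adjusted p = 0.00263), with an adjusted p of up to 0.112 without the others. P2rx6, the gene of the list with the highest mean CPM over all libraries, was at 4.73 and 6.77 CPM and was not called (adjusted p = 0.212).

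Among the other ATP release genes, Gjb2 differed most. It encodes connexin 26, whose hemichannels are a known route of ATP release in the cochlea, and it was at 718 ± 38.5 CPM in the cochlea and 177 ± 30.9 CPM in the vestibule (SD, n = 3 each), 4.41-fold higher in the cochlea (adjusted p = 3.21e-05, edgeR). Gja1, which encodes connexin 43, went the other way, from 31.7 to 84.8 CPM (adjusted p = 0.000379). Panx3, a pannexin of cartilage and bone, was at 1.27, 0.139 and 0.513 CPM in the cochlear libraries and 2.82, 2.88 and 2.94 CPM in the vestibular libraries (adjusted p = 0.0196), so it passed the filter only through the vestibule. Among genes with at least 1 CPM in all 6 libraries it was not tested. In all, 1 of 7 tested genes of this list rose in the cochlea and 2 in the vestibule, and Calhm3 was at 0 in all libraries.

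Among the other nucleotide breakdown genes, 3 of 10 tested were higher in the cochlea and 3 in the vestibule. Nt5e, or CD73, which turns AMP into adenosine and so follows Entpd1 in the pathway, was at 10.6 CPM in the cochlea and 23.1 CPM in the vestibule, 2.02-fold higher (adjusted p = 0.00454, edgeR). Alpl, tissue-nonspecific alkaline phosphatase, was 2.69-fold higher in the vestibule (adjusted p = 0.00375), and Acpp, an acid phosphatase that can also produce adenosine, was 3.14-fold higher in the cochlea (adjusted p = 0.00246). Entpd3, a relative of Entpd1, was at 14.5 and 25.4 CPM (adjusted p = 0.00383), and Enpp1, which splits ATP into AMP and pyrophosphate, was at 105.6 and 69.9 CPM (adjusted p = 0.00281). Enpp2, which makes lysophosphatidic acid, had the highest CPM of the list, at 236 and 176 CPM. Its call in the cochlea (adjusted p = 0.0371) was lost in 7 of 13 alternative fits, 5 of them with 1 library left out: cochlea replicate 2 (adjusted p = 0.131), cochlea replicate 3 (0.0653), or vestibule replicate 1 (0.0616), 2 (0.18) or 3 (0.0757). All 100-base stretches of Entpd4 also occur in Entpd4b, so its level cannot be read from these counts.

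For adenosine, the end product, 2 of 9 tested genes were higher in the cochlea and 0 in the vestibule (edgeR; 2 at an unadjusted p under 0.05, 0 by DESeq2 and 0 by limma-voom). Both were nucleoside or monoamine transporters of the same family: Slc29a1 at 120 and 74.7 CPM (adjusted p = 0.00466) and Slc29a4 at 16.6 and 6.36 CPM (adjusted p = 0.000143). None of the adenosine receptors tested was called by edgeR. Adora1 was at means of 4.38 and 6.97 CPM (adjusted p = 0.084) and Adora2a at 2.17 and 3.39 CPM (adjusted p = 0.126), both towards the vestibule. Adora2b was at 2.10 and 1.52 CPM (adjusted p = 0.0991), towards the cochlea.

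In the Gq and calcium store arm, through which P2Y receptors reach Ano1, 5 of 13 genes were higher in the vestibule and 0 in the cochlea (edgeR; 0 also at an unadjusted p under 0.05, by DESeq2 and by limma-voom). The number called was 3 without vestibule replicate 1 or 2, and 3 with the replicate number as a block. Itpr1, a calcium release channel of the endoplasmic reticulum, was at 41.1 ± 18.2 CPM in the cochlea and 175 ± 71.2 CPM in the vestibule (SD, n = 3 each), 3.88-fold higher (adjusted p = 0.00292). Gna15, a Gq family subunit of blood cells, was at 0.370 and 1.76 CPM (adjusted p = 0.00131), under 1 CPM in each cochlear library and so tested only because of its vestibular level. Plcb4, a phospholipase C, was at 20.1 and 43.1 CPM (adjusted p = 0.0397), a call lost in 6 of 13 alternative fits. Of these, 4 left out 1 library: cochlea replicate 1 (adjusted p = 0.13) or 2 (0.112), or vestibule replicate 1 (0.11) or 2 (0.0728). Gna14, another Gq family subunit (adjusted p = 0.00891), and Stim1, a calcium sensor of the stores (adjusted p = 0.00912), were the other genes called. Gnaq itself was at 133 and 122 CPM and was not called (adjusted p = 0.15).

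Of the other anoctamins, the gene family of Ano1, 0 of 7 tested were called in the cochlea (edgeR; 0 also at an unadjusted p under 0.05, by DESeq2 and by limma-voom) and 1 in the vestibule, Ano4, at 3.35 and 11.7 CPM (3.23-fold higher, adjusted p = 0.00168). Ano2, a calcium-activated chloride channel like Ano1, stayed under the filter and was not tested in the main fit. It had 2.17, 0.972 and 1.64 CPM in the cochlear libraries and 0.505, 0.701 and 0.353 CPM in the vestibular libraries, so all 3 cochlear libraries were higher. With no filter on low counts Ano2 was called higher in the cochlea, as Ano1 was (log2 fold change -1.74, adjusted p = 0.00341, edgeR). The count of other anoctamins called was 2 in that fit, and 2 without vestibule replicate 3. Ano6, a lipid scramblase and the most abundant of the list, was at 138 and 165 CPM and was not called (adjusted p = 0.405). Among chloride transporters and other chloride channels, 5 of 12 tested were higher in the vestibule and 1 in the cochlea. Bsnd, which encodes barttin, an accessory subunit of chloride channels, was at 2.74 ± 0.789 CPM in the cochlea and 42.1 ± 1.48 CPM in the vestibule (SD, n = 3 each), 14.2-fold higher (adjusted p = 6.16e-06, edgeR). Best1, also a chloride channel gene, rose in the vestibule too (adjusted p = 0.00367), and Slc12a7, which exports chloride with potassium, was higher in the cochlea (adjusted p = 0.00409). Cftr, a chloride channel gated by cyclic AMP signaling, was at 0.231 and 2.64 CPM (adjusted p = 5.09e-05), under 1 CPM in each cochlear library and so tested only because of its vestibular level. Markers of dark cells and stria, the tissue where barttin is known to act, were at 195 to 215 CPM in the cochlea and 810 to 825 CPM in the vestibule, with 6 of 6 called higher in the vestibule, Atp1b2 the highest and none at 0, and their part was not tested. Slc12a2, which loads cells with the chloride that Ano1 lets out, was the most abundant gene of the list at 522 and 549 CPM and was not called (adjusted p = 0.887).

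**Figure D5:**
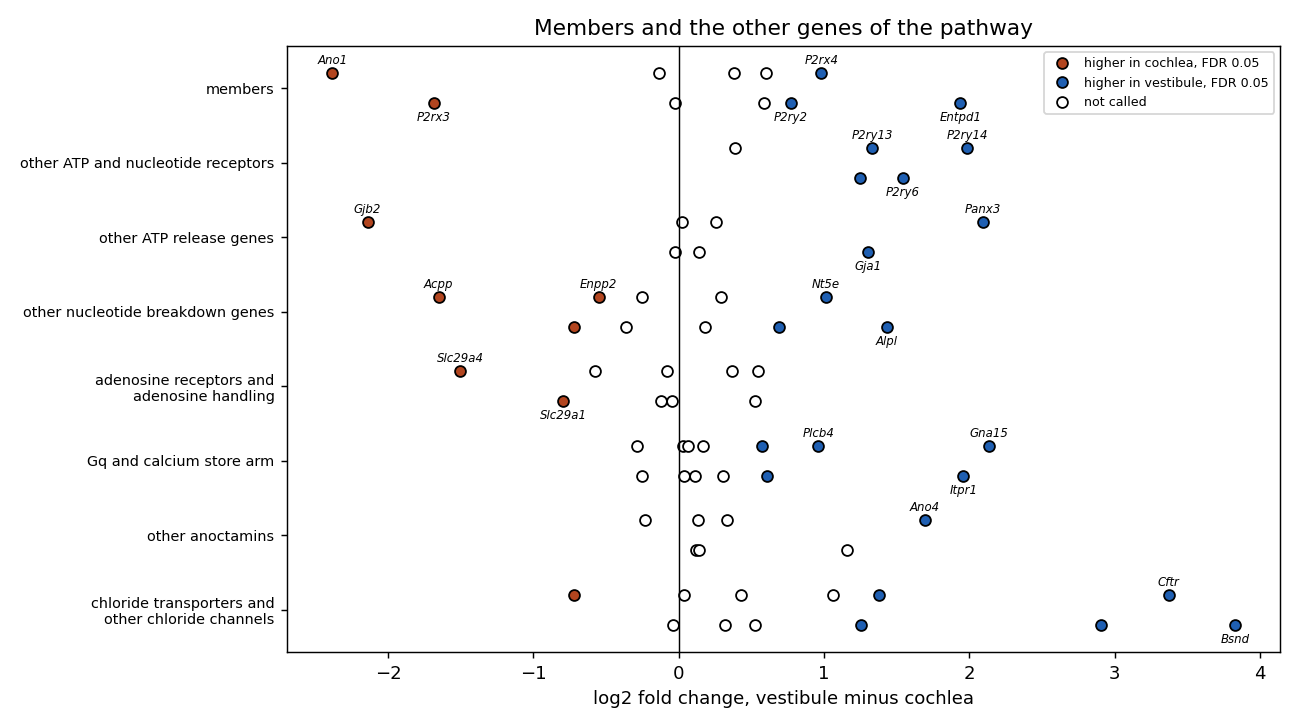
log2 fold change, vestibule minus cochlea, of the members and of the tested genes of each pathway list, with 1 point per gene, coloured where called by edgeR at an FDR of 0.05. Ano1 (-2.38) and Gjb2 (-2.14) lie farthest towards the cochlea, and Bsnd (3.83) and Cftr (3.37) farthest towards the vestibule.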

How the data were processed

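The authors aligned paired reads of 100 bases to GRCm38 (TopHat2 2.1.0). They deposited unnormalized read counts, made by htseq-count (HTSeq 0.5.4p5) on Ensembl genes; SAMtools 0.1.18 and edgeR 3.4.2 are also in the submitters' processing notes. The annotation was Ensembl release 74, and the strand setting of the counting is not given in the sources used here. A deposited matrix holds log2 RPKM of 14722 genes and was used here only to compare levels between genes. For 13554 of these the matrix and the counts gave the same gene length in all libraries within 0.01 on the log2 scale.

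The 5 summary lines of htseq-count held 18.5% to 20.6% of a library's listed counts and were left out of every library size and test. Samples were grouped by the tissue in their titles. The quasi-likelihood test of edgeR 4.0.16 (R 4.3.3), with TMM scaling, was run on genes reaching 1 CPM in 3 libraries, and p-values were adjusted by Benjamini-Hochberg over all of these. Standard errors and 95% intervals come from that fit. Alternatives were DESeq2 1.42.0, limma-voom (limma 3.58.1), other scalings, filters and thresholds, a replicate block and leaving out each library. The intervals cover the spread between libraries only. GENCODE exonic lengths, an alternative for levels per length, were chosen after seeing the data.

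The members and all lists were chosen with earlier results of these data known. All members were named. From each other pathway list the called genes without overlap were named, at most the 3 with the largest change. The gene of each of these lists with the highest mean CPM over all libraries was named too. From each marker list, the gene with the highest such mean and genes at 0 throughout were named. Other genes of these lists were named after their values were seen, and some genes of the lists are not reported here. Coordinates are of GENCODE vM21. Shared sequence was searched as 100-base stretches in its transcripts. Figures were drawn with matplotlib 3.10.9.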

Additional observations from a re-analysis of the deposited data

How the results depend on the processing

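Replicate numbers are shared by the tissues, but the labels tie nothing to them. Same-numbered libraries deviated from their tissue means with correlations of -0.18, -0.26 and -0.47. In no pair did a library correlate best with its own number. Deviations from a mean of 3 libraries are tied to one another, so these values cannot decide whether the numbers pair the samples. With the replicate number as a block, 1 member was higher in the cochlea, since P2rx3 had an adjusted p of 0.0597 (edgeR, log2 fold change -1.61), and 1009 and 1609 of all genes were called in the cochlea and the vestibule, against 1711 and 2325 without it. The count of members higher in the vestibule was 5 with library sizes alone, and also 5 when genes past a fold of 1.3 were called at an FDR of 0.1. With each library left out in turn, 1 (without cochlea replicate 2 or vestibule replicate 2) to 2 members were higher in the cochlea. All other counts over the members, and those over the 77 other pathway genes together, kept within 1.5 times. Single lists did not: the other nucleotide receptors called went from 4 to 2 with 1 CPM in all 6 libraries and to between 1 and 2 without cochlea replicate 2 or any vestibular library, the Gq arm from 5 to 3 (replicate block, without vestibule replicate 1 or 2), the adenosine genes from 2 to 4 (FDR 0.1) and the other anoctamins from 1 to 2 (FDR 0.1, no filter, without vestibule replicate 3). The sign of P2ry1 changed with library sizes alone (0.086), and with a library left out it ran from -0.21 to 0.10. Slc12a2 changed likewise, to 0.074, and from -0.13 to 0.0975. Neither was called in any fit. Over all genes, 925 and 1342 were called without vestibule replicate 2, the smallest totals of the fits with a library left out. The cause of these changes was not tested. On depth, Entpd2 had the fewest counts of the members, from 74 in a library. Single outlying libraries were not tested for, since each tissue has 3.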

Other observations

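Several genes of the pathway varied by more than 2-fold among the libraries of 1 tissue. Among the genes with at least 1 CPM in each library of a tissue, 8 of 65 pathway genes did so in the cochlea and 8 of 72 in the vestibule, where 7.94% and 7.10% of all such genes did. P2rx3 was the member among them in each tissue. Itpr1 was at 29.96, 31.3 and 62.1 CPM in the cochlear libraries and 249, 168 and 107 CPM in the vestibular libraries. Clcn2, a chloride channel gene chosen here after its values were seen, was at 15.5, 18.7 and 37.6 CPM and at 78.7, 53.0 and 32.1 CPM. In both genes cochlea replicate 3 was the highest cochlear library and vestibule replicate 1 the highest vestibular one. The share of all listed counts that fell on no gene was 4.30%, 4.73% and 7.45% in the cochlear libraries and 6.85%, 6.998% and 5.77% in the vestibular libraries.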
